A study of Mus musculus with 5 samples.

Results

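DNA methylation was measured at 43 imprinted genes of the mouse, out of 31358 annotated genes, and at the regions that control them, in acute myeloid leukemia (AML). The 43 genes were listed by symbol, with earlier results of these data known. All 43 were found in the GENCODE vM21 annotation of GRCm38 (mm10), of which 38 encode proteins and 5 encode long noncoding RNAs, and they fall into 20 loci on 10 chromosomes. Methylation was read by whole-genome bisulfite sequencing (WGBS), in which an unmethylated cytosine is read as T and a methylated one as C. Each library came from the bone marrow of 1 mouse with AML on the C57BL/6 strain, and 5 libraries were compared. All 5 carried *Cebpa*-/p30, that is, 1 deleted *Cebpa* allele and 1 from which the myeloid transcription factor CEBPA is made only in its shorter form, p30. The *Cebpa*-/p30 *Tet2*+/+ leukemias (libraries 23 and 24) kept *Tet2*, the gene of an enzyme that oxidises methylated cytosine, and the *Cebpa*-/p30 *Tet2*-/- leukemias (libraries 5, 7 and 8) lacked it. In this model, bone marrow was transplanted into lethally irradiated recipients of another CD45 type, and the floxed alleles were then deleted by Mx1-Cre after injection of Poly(I)-Poly(C), which acts in blood cells and in some other tissues. Leukemic blasts were sorted as live donor cells without the CD3, B220 and Ter119 surface markers of T, B and erythroid cells. The question was how far the methylation of imprinted loci differs between leukemias with and without *Tet2*. No library of normal blood cells is part of the series.

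Genomic imprinting is the expression of a gene from only the maternal or only the paternal copy. Each imprinted cluster has a control region that is methylated on 1 parental copy in the germ line and keeps that mark in the cells of the body, so that bulk DNA reads as partly methylated there. The control regions of *H19*, of the *Dlk1* and *Meg3* cluster and of *Rasgrf1* carry the mark on the paternal copy and lie between genes, whereas most others carry it on the maternal copy and lie at a promoter, often that of a long noncoding RNA such as *Kcnq1ot1* or *Airn*. The zinc finger protein ZFP57 binds the methylated copy at the motif TGCCGC and helps to keep the mark, and CTCF binds the unmethylated copy upstream of *H19* and insulates *Igf2* from its enhancers.

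The letters of the control regions were searched for the motifs of these proteins, and the first set is the 4 matches to the CTCF core upstream of *H19*. The core was searched as CCGCNNGGNGGCAG on both strands. It occurred 4 times in the region from 4000 to 2000 bp upstream of *H19* (chr7:142580143-142582143), at 3898, 3654, 2628 and 2173 bp from the gene start, and none of the matches overlapped another. Of promoters of the same length (1000 bp on each side of a gene start), 0.354% held the core at all, and none of 31358 held 4. The matches are printed 5′ to 3′ on the minus strand, the strand of *H19*, with the core in capitals. They lie at chr7:142582011-142582070, chr7:142581767-142581826, chr7:142580741-142580800 and chr7:142580286-142580345 and touch no annotated exon.
H19 site 1: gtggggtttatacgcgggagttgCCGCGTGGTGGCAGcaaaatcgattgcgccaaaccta
H19 site 2: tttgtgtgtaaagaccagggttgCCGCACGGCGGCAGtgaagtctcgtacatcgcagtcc
H19 site 3: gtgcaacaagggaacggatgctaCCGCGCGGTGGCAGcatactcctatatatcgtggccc
H19 site 4: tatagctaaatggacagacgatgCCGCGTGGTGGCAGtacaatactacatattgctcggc

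Each core holds CpG positions, where CTCF binding is known to be sensitive to methylation. Added over the 5 libraries, because single libraries had few calls there, the CpGs inside the cores were methylated at 31.0%, 41.9%, 31.6% and 32.8% of 29, 105, 117 and 58 calls at sites 1 to 4.

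The motif of ZFP57 was searched as TGCCGC on both strands. It occurred at least once in 22 of the 24 control regions defined below and at least 5 times in 11 of them. Of all promoters, 38.5% held it once or more and 0.979% held it 5 times or more, and of CpG-dense promoters 64.9% and 2.22% did, so a single match is common. The matches were most numerous in the region of *Mest* (12) and of *Snrpn* (10), and 9 lay in the 3 kb from 12 to 15 kb upstream of *Meg3*. The stretches below are the 100 bases outside exons with most matches in 5 regions that had very different levels in these leukemias, with the motif or its reverse complement in capitals. They are printed on the strand of the gene, at chr7:60005112-60005211 (minus), chr6:30738350-30738449, chr2:152686834-152686933, chr7:128687949-128688048 and chr12:109528345-109528444 (plus).
Snrpn: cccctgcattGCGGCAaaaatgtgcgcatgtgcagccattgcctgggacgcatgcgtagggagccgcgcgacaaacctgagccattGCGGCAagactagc
Mest: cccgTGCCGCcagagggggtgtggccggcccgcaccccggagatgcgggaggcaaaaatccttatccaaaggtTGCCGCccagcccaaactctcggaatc
Mcts2: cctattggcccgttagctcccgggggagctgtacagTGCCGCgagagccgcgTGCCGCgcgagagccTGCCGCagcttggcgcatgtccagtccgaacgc
Inpp5f: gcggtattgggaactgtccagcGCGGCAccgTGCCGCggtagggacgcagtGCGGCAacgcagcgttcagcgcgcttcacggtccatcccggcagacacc
Meg3 upstream: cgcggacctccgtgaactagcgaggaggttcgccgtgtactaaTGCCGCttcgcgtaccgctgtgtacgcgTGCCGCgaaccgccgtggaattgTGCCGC

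The stretch of *Mcts2*, which holds the motif 3 times, was methylated at 97.1% and 100% of calls in *Tet2*+/+ and at 96.2%, 100% and 88.2% in *Tet2*-/-. The stretch of *Inpp5f*, also with 3 matches, was methylated at 18.2% and 18.6% in *Tet2*+/+ and at 12.2%, 28.1% and 15.4% in *Tet2*-/-. The stretch of *Mest* lay between them, at 57.9% and 50% in *Tet2*+/+ and 46.4%, 58.7% and 36.0% in *Tet2*-/-. Some of these levels rest on few calls, with 8 in library 24 at *Mest* and 18 and 17 in libraries 24 and 8 at *Mcts2*. A match is a description of the letters, and binding was not measured here. The stretch upstream of *Meg3* had no call in libraries 5 and 8, so no level is given for it.

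Values below are levels, the share of methylated calls among all calls at the CpG dyads of a region (both strands added), and are listed in the order of libraries 23 and 24 (*Tet2*+/+), then 5, 7 and 8 (*Tet2*-/-). Differences are the mean of *Tet2*-/- minus the mean of *Tet2*+/+, in percentage points. The libraries held 63111735 to 110752967 calls at 21353092 dyads, or 2.96 to 5.19 calls per dyad. The deleted *Tet2* segment, placed between matches of the genotyping primers of the study (chr3:133466391-133468261) had 121 and 150 calls in *Tet2*+/+ and 0 in each *Tet2*-/- library, which allows at most 1.86%, 1.90% and 3.31% of the coverage of its flanks. Over the genome the level was 67.3% and 62.3% in *Tet2*+/+ and 70.9%, 74.8% and 68.4% in *Tet2*-/-, a difference of 6.52 points (exact permutation test, two-sided, p = 0.2). The difference was smaller without library 24, with 67.3% in *Tet2*+/+ and a mean of 71.4% in *Tet2*-/-. With 2 and 3 libraries there are 10 splits, so that no exact p can be below 0.1. Promoters of 8 myeloid marker genes had median group means of 10.1% in *Tet2*+/+ and 13.3% in *Tet2*-/-, and those of 7 lymphoid marker genes 60.4% and 73.1%. At the promoters, 0 of 8 myeloid, 0 of 7 lymphoid and 1 of 4 erythroid markers (*Hba-a1*) passed edgeR's quasi-likelihood test of methylated and unmethylated counts, adjusted by Benjamini-Hochberg over all promoters, with 1, 3 and 2 at an unadjusted p under 0.05 and 0, 0 and 1 with limma. Of all promoters 1.95% passed, 19.1% had an unadjusted p under 0.05 and 0.699% passed with limma. In bodies, 3 of 8 myeloid and 5 of 7 lymphoid markers, among them *Mpo* and *Cd3e*, were higher in *Tet2*-/- beside 12.9% of all gene bodies, and 0 of 3 erythroid ones (1 at an unadjusted p under 0.05). With limma 0 bodies of the 3 lists passed. The part of these marker differences in the results below was not tested. In bulk DNA, a change in the share of cells of a type and a change within each cell cannot be told apart.

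Control regions were placed by annotation, as 1000 bp on each side of a transcript start at 17 genes or, for *H19*, the span from 4000 to 2000 bp upstream. Where a gene has several starts, the start with most CpG dyads was used, and for *Grb10*, *Gnas* and *Inpp5f* each start with at least 60 dyads, a limit set after the levels could be seen. They are called control regions by their placement alone, and a start among them need not carry a mark on 1 parental copy. This gave 24 regions at 18 genes, out of 54 start sites. The other 30 sites held 8 to 88 dyads, with a median level of 81.5%, and 26 of them had a median above 65%.

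Levels at the 24 regions ranged from nearly unmethylated to nearly fully methylated. The median over the 5 libraries lay between 35% and 65%, the band around the level of 1 methylated copy, at 12 of 24 regions. It lay above 65% at 7 and below 35% at 5. Only *H19* and *Mest* stayed inside the band in all 5 libraries, and neither did within 500 bp of its centre. *Mcts2*, *Nnat*, *Nap1l5* and *Slc38a4* were above 65% in all 5. The *Gnas* region 45.7 kb into the gene and the start of *Inpp5f* were below 35% in all 5. Both hold the most dyads among the starts of their genes. Within a region the libraries spanned a median of 16.8 points (6.09 to 51.9). The 95% Wilson interval of a single level reached at most 7.65 points to each side, from 147 to 978 calls. It covers counting error only and takes every call as independent. Neighbouring CpGs can share a read, so the interval can be too narrow.

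**Figure D1:**
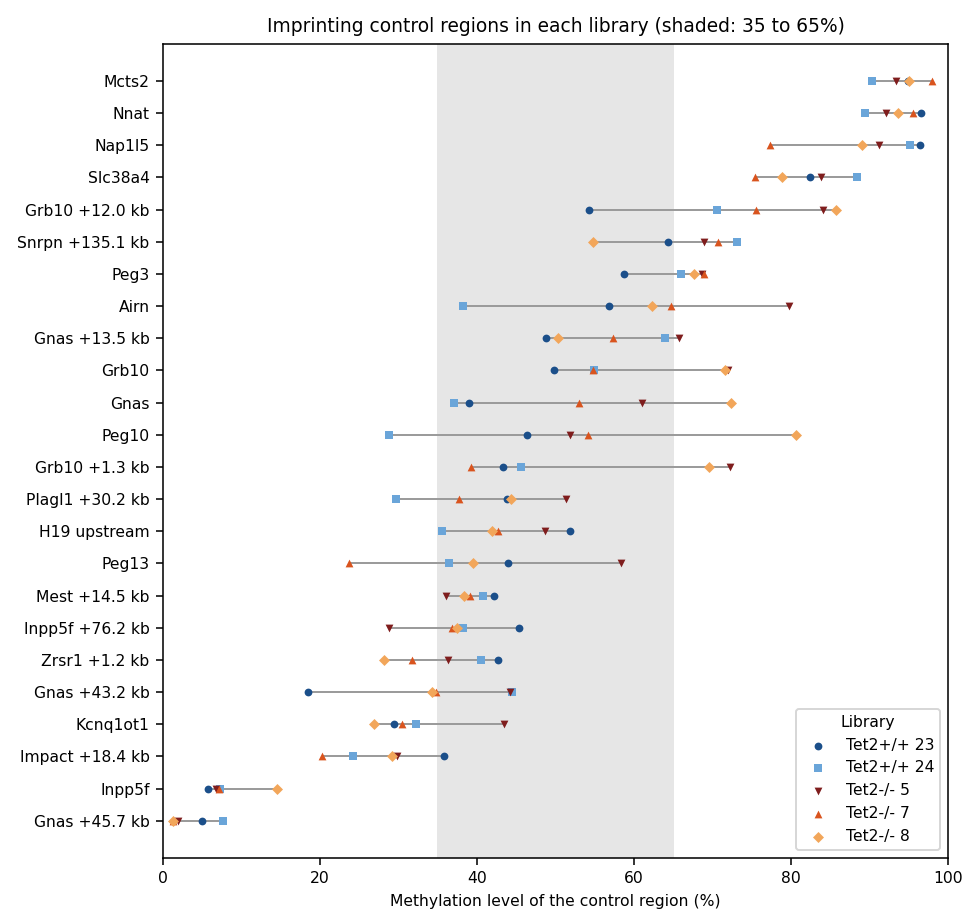
Methylation level (%, x axis) of the 24 control regions (rows, in order of their median, with the distance into the gene) in the 5 libraries, with points by library, a line from the lowest to the highest and shading for the band of 35 to 65%. *H19* and *Mest* keep all 5 points in the band, *Mcts2*, *Nnat*, *Nap1l5* and *Slc38a4* lie above it, and *Peg10* has the longest line, 51.9 points.

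Of the 24 regions, 16 (66.7%) had a higher mean in *Tet2*-/- and 8 a lower one, with a median difference of 2.16 points. Of all promoters tested, 78.8% had a higher mean in *Tet2*-/-. All 3 *Tet2*-/- libraries lay above both *Tet2*+/+ libraries at 5 regions (20.8%) and below both at 5 (20.8%). Over all promoters tested, the same held for 34.5% and 3.43%, and over autosomal 1 kb windows with at least 50 dyads for 25.3% and 5.98%. Of the regions without overlap, those of *Grb10*, *Gnas* and *Inpp5f* belong to the genes with the limit of 60 dyads, set after the levels could be seen. The groups overlapped at the other 14 regions.

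The paternally marked region of *H19*, a noncoding RNA gene expressed from the maternal copy, was at 51.8% and 35.5% in *Tet2*+/+ and at 48.6%, 42.6% and 41.9% in *Tet2*-/-. The groups overlapped, with means of 43.6% ± 11.5 (SD, n = 2) and 44.4% ± 3.67 (n = 3) and a difference of 0.75 points (exact permutation p = 1). The gene itself differed more, as described below.

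Upstream of *Meg3*, a noncoding RNA gene whose cluster also holds *Dlk1*, an inhibitor of differentiation, the 77 windows of 1 kb up to *Dlk1* were read one by one. Of 66 windows with enough calls, 34 were above 65% in all 5 libraries. In 22 of the 66 all *Tet2*-/- libraries were above both others and in 1 below both, beside 32.9% and 2.06% of all windows of the genome. The 3 kb at 12 to 15 kb upstream (chr12:109526001-109529000), which include the stretch printed above, were at 89.2% and 86.6% in *Tet2*+/+ and at 91.9%, 95.3% and 87.6% in *Tet2*-/-. These 3 windows were singled out after their levels were seen, so no test is given. The groups overlapped over the 3 kb together, and in 1 of the 3 windows, at 14 to 15 kb, all *Tet2*-/- libraries were above both others (84.2%, 82.6%, 91.5%, 96.9% and 92.1%). The window at 10 to 11 kb upstream, in contrast, was at 0.0% and 0.952% in *Tet2*+/+ and at 2.46%, 4.27% and 1.37% in *Tet2*-/-. It was nearly unmethylated in every library, with all *Tet2*-/- libraries slightly above both others, and borders the methylated 3 kb across a single window at intermediate to low level (21.4%, 17.6%, 23.1%, 39.2% and 24.3%).

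Upstream of *Rasgrf1*, which encodes an exchange factor for RAS proteins, 23 of 40 windows of 1 kb had enough calls and none lay in the band in all libraries. All *Tet2*-/- libraries were above both others in 10 of the 23 and below both in 1, beside 32.9% and 2.06% of all windows of the genome. The windows around 30 kb upstream, where its control region is known to lie, are given. The window at 31 to 32 kb upstream was at 31.7% and 37.5% in *Tet2*+/+ and at 52.7%, 39.5% and 78.8% in *Tet2*-/-, and the window at 30 to 31 kb at 25.7% and 50% in *Tet2*+/+ and at 39.3%, 33.9% and 89.7% in *Tet2*-/-. The groups overlapped in the latter only, and library 8 was far above the others in both. The window at 29 to 30 kb upstream had 0 to 5 calls per library and is not analysed.

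Among the maternally marked regions at noncoding RNA starts, *Airn* differed most between the groups. *Airn* is an antisense transcript that silences *Igf2r*, the receptor that clears IGF2. Its start (chr17:12740311-12742311, 75 dyads) was at 56.8% and 38.2% in *Tet2*+/+ and at 79.8%, 64.7% and 62.3% in *Tet2*-/-. All *Tet2*-/- libraries were above both others, by 21.4 points in the mean (47.5% ± 13.1 against 68.9% ± 9.48; exact permutation p = 0.1, the smallest possible). Without *Tet2*+/+ library 24 the difference at *Airn* was 12.1 points. The start of *Kcnq1ot1*, an antisense transcript that silences its neighbours in cis (chr7:143295549-143297549, 78 dyads), was at 29.3% and 32.2% in *Tet2*+/+ and at 43.5%, 30.5% and 26.9% in *Tet2*-/-. Here the groups overlapped, with a difference of 2.85 points (exact permutation p = 0.9). Without library 5 the *Tet2*-/- mean at *Kcnq1ot1* was 28.7%, below the *Tet2*+/+ mean of 30.7%. *Peg13*, a noncoding RNA gene inside *Trappc9*, was at 44.0% and 36.4% in *Tet2*+/+ and at 58.4%, 23.6% and 39.5% in *Tet2*-/-. The 3 *Tet2*-/- leukemias spanned the whole range at *Peg13*, from its highest to its lowest level.

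*Peg10*, a gene derived from a retrotransposon, shares its start with *Sgce*, the gene of a sarcoglycan. The shared start (chr6:4746306-4748306, 128 dyads) was at 46.3% and 28.8% in *Tet2*+/+ and at 51.8%, 54.2% and 80.7% in *Tet2*-/-. It had the largest difference of the 24 regions, 24.7 points, without overlap (37.5% ± 12.4 against 62.2% ± 16; exact permutation p = 0.2). The difference was 15.9 points without library 24 and 15.4 without library 8. *Peg3*, a zinc finger gene that shares its start with *Usp29*, was at 58.8% and 66% in *Tet2*+/+ and at 68.6%, 68.9% and 67.6% in *Tet2*-/-, a difference of 5.99 points (exact permutation p = 0.1). The *Tet2*-/- libraries agreed there to within a few points and lay above both others, with a difference of 2.37 points without library 23 and 9.61 without library 24.

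*Grb10* encodes an adaptor that restrains growth signals. Its start 12 kb into the gene was at 54.3% and 70.6% in *Tet2*+/+ and at 84.0%, 75.5% and 85.7% in *Tet2*-/-, 19.3 points higher without overlap (exact permutation p = 0.1) and 11.2 points higher without library 23. The CpG island at 1.3 kb, with 222 dyads, was at 43.3% and 45.6% in *Tet2*+/+ and at 72.2%, 39.2% and 69.5% in *Tet2*-/-. Here *Tet2*-/- library 7 stayed with the *Tet2*+/+ libraries while libraries 5 and 8 were higher. The outermost start repeated that order, with 49.8% and 54.9% in *Tet2*+/+ and 72.0%, 54.7% and 71.5% in *Tet2*-/-. The last 2 regions lie side by side and share part of their dyads.

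*Gnas* encodes the alpha subunit of the stimulatory G protein and has several starts in a row, used by transcripts of different imprinting. The outermost start, that of the *Nesp* transcript (chr2:174283320-174285320, 108 dyads), was at 38.9% and 37.1% in *Tet2*+/+ and at 61.0%, 53.0% and 72.4% in *Tet2*-/-. It was 24.1 points higher in *Tet2*-/- without overlap (38.0% ± 1.28 against 62.1% ± 9.76; exact permutation p = 0.1). The start 13.5 kb into the gene, at 48.7%, 63.9%, 65.7%, 57.3% and 50.3%, and that at 43.2 kb, at 18.4%, 44.5%, 44.2%, 34.7% and 34.2%, overlapped between the groups. The start at 45.7 kb, a CpG island of 203 dyads, was low in all, at 4.89% and 7.56% in *Tet2*+/+ and at 1.87%, 1.20% and 1.27% in *Tet2*-/-. It was the only one of the 4 *Gnas* starts where all *Tet2*-/- libraries were below both *Tet2*+/+ libraries, by 4.77 points.

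Lower levels in *Tet2*-/- without overlap were found at 4 more regions. *Mest*, which encodes a member of the alpha/beta hydrolase family, was at 42.1% and 40.8% in *Tet2*+/+ and at 36.0%, 39.1% and 38.3% in *Tet2*-/- at its start 14.5 kb into the annotated gene (chr6:30737050-30739050, 110 dyads). With 6.09 points between the lowest and the highest library it was the most uniform of all 24 regions, and its difference was -3.63 points (exact permutation p = 0.1). *Zrsr1*, a splicing factor gene copied into an intron of *Commd1*, was read at its start 1.2 kb into the gene. It was at 42.6% and 40.5% in *Tet2*+/+ and at 36.3%, 31.7% and 28.2% in *Tet2*-/- there. The groups overlapped at the gene start itself, with 43.3% and 45.8% in *Tet2*+/+ and 45.4%, 37.4% and 32.4% in *Tet2*-/-. The start 76.2 kb into *Inpp5f*, a phosphoinositide phosphatase gene, was at 45.3% and 38.2% in *Tet2*+/+ and at 28.8%, 36.8% and 37.4% in *Tet2*-/-. Its differences of -7.40 points, and of -9.51 points at *Zrsr1*, each had an exact permutation p of 0.2. At this *Inpp5f* start the difference was -3.83 points without library 23 and -4.63 without library 5.

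*Nap1l5*, a relative of nucleosome assembly genes inside an intron of *Herc3*, also belonged to them, at 96.4% and 95.1% in *Tet2*+/+ and at 91.2%, 77.3% and 89.1% in *Tet2*-/-, a difference of -9.92 points (exact permutation p = 0.2), or -5.65 without library 7. It was one of the 4 regions that were mostly methylated in every library. *Nnat*, a gene inside an intron of *Blcap* that encodes neuronatin, was at 96.5%, 89.4%, 92.1%, 95.5% and 93.6%. *Mcts2*, copied into an intron of *H13*, was at 94.9%, 90.3%, 93.4%, 97.9% and 95%. *Slc38a4*, the gene of an amino acid transporter, was at 82.4%, 88.3%, 83.8%, 75.3% and 78.8%. *Nnat*, *Mcts2* and *Slc38a4* overlapped between the groups, so that their high level was shared by leukemias with and without *Tet2*.

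In the remaining regions the groups overlapped. *Snrpn*, the splicing protein gene of the cluster known from Prader-Willi syndrome, was at 64.3%, 73.1%, 68.9%, 70.6% and 54.7% at its start 135 kb into the annotated gene. *Plagl1*, the gene of a zinc finger transcription factor, was at 43.8%, 29.7%, 51.3%, 37.7% and 44.3% at its start at 30.2 kb. *Impact*, a regulator of translation, was at 35.8%, 24.1%, 29.8%, 20.3% and 29.1% at 18.4 kb. In contrast, the start of *Inpp5f* itself was at 5.70%, 7.23%, 6.72%, 7.11% and 14.5%, far below the start inside the same gene.

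**Figure D2:**
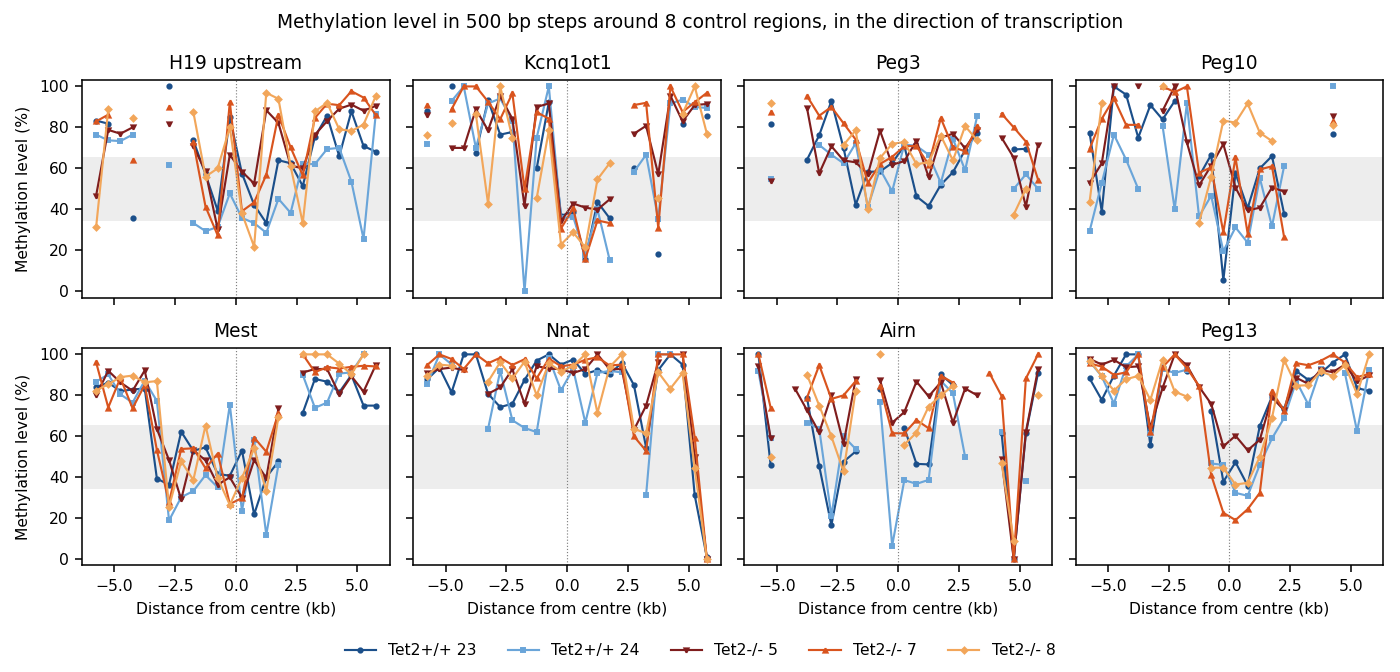
Methylation level (%, y axis) in 500 bp steps by distance from the centre (kb, x axis, in the direction of transcription) at 8 control regions, with 1 line per library coloured by genotype and shading for 35 to 65%. Steps with fewer than 10 calls are left out, so lines break there; at *Nnat* the 5 lines stay high across the centre, at *Mest* and *Peg13* they dip at it, and at *Airn* and *Peg10* a *Tet2*+/+ library is lowest near it.

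Coverage was compared in 1 Mb around each locus, relative to the autosomes of the same library, because a lost or gained parental copy would move both coverage and level. At most loci the libraries differed little, as at *Igf2r*-*Airn* (99.1% to 102%) and *Gnas* (109% to 117%). *Tet2*-/- library 5 stood apart at *Nnat*-*Blcap*, with 75.8% where the other 4 had 107% to 120%, and at *Mcts2*-*H13*, with 76.6% where the others had 108% to 121%. That is 0.67 times the median library at both, and the whole of chromosome 2 was at 81.7% in library 5. Without library 5 the level of *Nnat* in *Tet2*-/- was 94.6% and that of *Mcts2* was 96.4%. At the loci of chromosome 15 the libraries also differed, with 141% and 123% in *Tet2*+/+ and 164%, 164% and 168% in *Tet2*-/- at *Peg13*-*Trappc9*. The whole of chromosome 15 was at 125% and 107% in *Tet2*+/+ and at 142%, 139% and 143% in *Tet2*-/-, so that coverage at *Peg13* and *Slc38a4* moved with that of the chromosome. The part of these differences in the levels of *Nnat*, *Mcts2*, *Peg13* and *Slc38a4* was not tested.

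**Figure D3:**
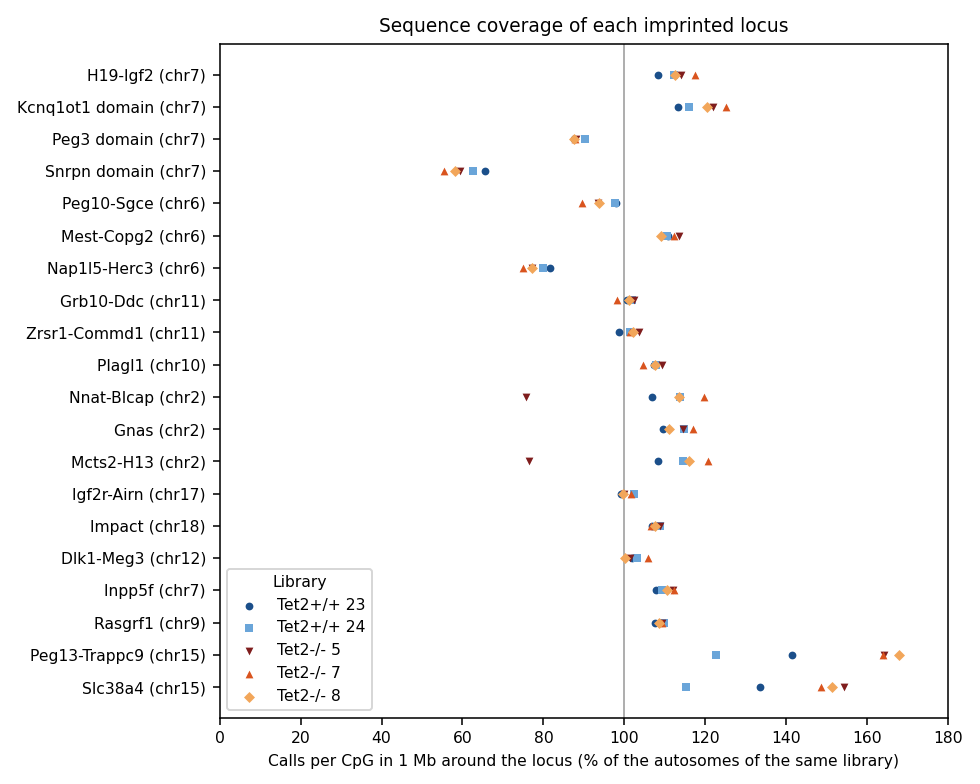
Calls per CpG in 1 Mb around each of the 20 loci (rows), as % of the autosomes of the same library (x axis), with points by library. Library 5 falls to 75.8% and 76.6% at *Nnat*-*Blcap* and *Mcts2*-*H13*, all libraries lie above 100% at the loci of chromosome 15, and the *Snrpn* domain is the lowest, at 55.5% to 65.5%.

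At the promoters, 1000 bp on each side of the annotated gene start, no member passed edgeR's quasi-likelihood test at an adjusted p of 0.05 (0 of 43), where 1.95% of 28342 promoters did, 1.93% with a higher and 0.0212% with a lower level in *Tet2*-/-. At an unadjusted p under 0.05 there were 10 of 43 members, against 19.1% of all promoters, and limma called 0 (0.699% of all promoters), also after each library's median was subtracted (0.067%). The mean was higher in *Tet2*-/- at 34 members and lower at 9, where it was higher at 78.8% of all promoters. The median difference was 4.51 points beside 3.09 over all promoters. All *Tet2*-/- libraries were above both others at 15 members (34.9%; 34.5% of all promoters) and below both at 2, *Nap1l5* and *Mkrn3* (3.43% of all promoters). *Peg10* and *Sgce*, and *Peg3* and *Usp29*, share most of their promoter calls and are not separate observations.

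By edgeR's adjusted p, the 5 lowest members were *Ddc*, *Gnas* (0.0792), *Blcap*, *Nap1l5* (0.119) and *Igf2r*, of which *Nap1l5* was lower in *Tet2*-/- and the others higher. The promoters of *Gnas* and *Nap1l5* are control regions described above. *Ddc*, the neighbour of *Grb10* that encodes dopa decarboxylase, was at 46.0% and 40.8% in *Tet2*+/+ and at 65.9%, 78.1% and 72.7% in *Tet2*-/-, with a difference of 28.8 points and an adjusted p of 0.0703 in edgeR's quasi-likelihood test. *Blcap*, whose intron holds *Nnat*, was at 24% and 9.84% in *Tet2*+/+ and at 41.8%, 48.1% and 39.4% in *Tet2*-/- over 13 dyads, with an edgeR adjusted p of 0.0994. *Igf2r* was at 64.0% and 37.8% in *Tet2*+/+ and at 76.6%, 66.9% and 74.0% in *Tet2*-/-, a difference of 21.6 points with an edgeR adjusted p of 0.126. At *Igf2r* the difference was 8.52 points without *Tet2*+/+ library 24 and 34.8 without library 23. The groups did not overlap at these 3, and none passed. With every library thinned to the depth of the shallowest, *Ddc* had an edgeR adjusted p of 0.0411.

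*H13*, *Commd1*, *Herc3*, *Trappc9* and *Blcap* each hold an imprinted gene in an intron. The promoters of the first 4 were mostly unmethylated in every library, and that of *Blcap*, given above, was not. The promoters of *Igf2r* and *Kcnq1*, whose bodies hold the starts of *Airn* and *Kcnq1ot1*, were at 37.8% to 76.6% and at 16.6% to 32.6%. *H13* was at 2.42% to 4.8%, *Commd1* at 3.27% to 5.18%, *Herc3* at 3.91% to 7.24% and *Trappc9* at 2.29% to 5.85%. *Copg2*, the neighbour of *Mest*, was at 7% to 9.69%. *Ube3a*, a ubiquitin ligase gene imprinted in neurons, was lowest, at 0.198% to 1.28%. These levels contrast with those of the genes they hold or adjoin, such as *Mcts2*, *Zrsr1*, *Nap1l5*, *Mest* and *Peg13*. Of the silenced genes of the *Kcnq1ot1* cluster, *Cdkn1c*, an inhibitor of the cell cycle, was at 50.3% and 36.2% in *Tet2*+/+ and at 49.9%, 50.9% and 36.9% in *Tet2*-/-. *Phlda2*, a growth-restraining gene of the placenta, was at 10.0%, 4.90%, 11.3%, 13.3% and 11.3%, and *Kcnq1*, the gene of a potassium channel, at 17.5%, 16.6%, 32.6%, 28.9% and 24.5%. *Kcnq1* and *Phlda2* were higher in every *Tet2*-/- library and did not pass the test (edgeR adjusted p of 0.199 and 0.316).

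In the gene bodies, 6 of 43 members passed edgeR's test (14%), where 12.9% of 29863 bodies did, and all 6 were higher in *Tet2*-/- (lower in 0.0301% of all bodies). At an unadjusted p under 0.05 there were 16, against 28.5% of all bodies, and limma called 0 (0.124% of all bodies), also after median subtraction (0.00335%). All *Tet2*-/- libraries were above both others at 19 members (44.2%; 46% of all bodies) and below both at 2, *Mkrn3* and *Zrsr1* (1.37% of all bodies). The median difference was 4.68 points over the members and 5.42 over all bodies, so that imprinted genes as a group were close to the rest of the genome.

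The 6 genes come from 5 loci and are named with their spans. *Meg3* (chr12:109541001-109571726) was at 69.1% and 59.3% in *Tet2*+/+ and at 80.1%, 83.4% and 75.7% in *Tet2*-/-, higher by 15.6 points (edgeR adjusted p = 0.00152). *H19* (chr7:142575529-142578143) was at 74.7% and 58.4% in *Tet2*+/+ and at 84.9%, 90.6% and 82.9% in *Tet2*-/-, higher by 19.6 points (edgeR adjusted p = 0.00706). Both are noncoding RNA genes.

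*Igf2*, the growth factor gene that lies beside *H19* (chr7:142650766-142666816), was the least methylated of the 6, at 29.4% and 19.8% in *Tet2*+/+ and at 44.8%, 31.7% and 49.7% in *Tet2*-/-, higher by 17.5 points (edgeR adjusted p = 0.0026). *Igf2r* (chr17:12682406-12769664) was at 64.7% and 56.1% in *Tet2*+/+ and at 75.3%, 79.3% and 70% in *Tet2*-/-, higher by 14.5 points (edgeR adjusted p = 0.0095). Its body holds the start of *Airn*, and the 2 genes share calls there.

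*Sgce* (chr6:4674350-4747207) was at 74.2% and 61.6% in *Tet2*+/+ and at 81.5%, 86.8% and 75.5% in *Tet2*-/-, higher by 13.4 points (edgeR adjusted p = 0.00526). *Ddc* (chr11:11814101-11898144) was at 66.9% and 67.9% in *Tet2*+/+ and at 74.3%, 81.8% and 75.0% in *Tet2*-/-, higher by 9.65 points (edgeR adjusted p = 0.0468). At 5 of the 6 genes, all but *Ddc*, library 24 was the lower of the *Tet2*+/+ libraries. None of the 6 passed without *Tet2*+/+ library 24 (edgeR adjusted p of 0.361 to 0.574) or with limma (0.104 to 0.189). Without that library the difference was 11.4 points at *H19* and 7.05 at *Sgce*, and between 10.1 and 12.7 points at the other 4. *Ddc* also did not pass without library 23, 5 or 7 (edgeR adjusted p of 0.173, 0.102 and 0.134), nor *Igf2r* without library 5 (0.0647). A fit without library 24, like one without library 23, leaves the *Tet2*+/+ group without a replicate. With 1 library left out, the difference ranged from 11.4 to 27.8 points at *H19* and from 7.05 to 19.7 at *Sgce*. It was smallest without library 24 at both.

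**Figure D4:**
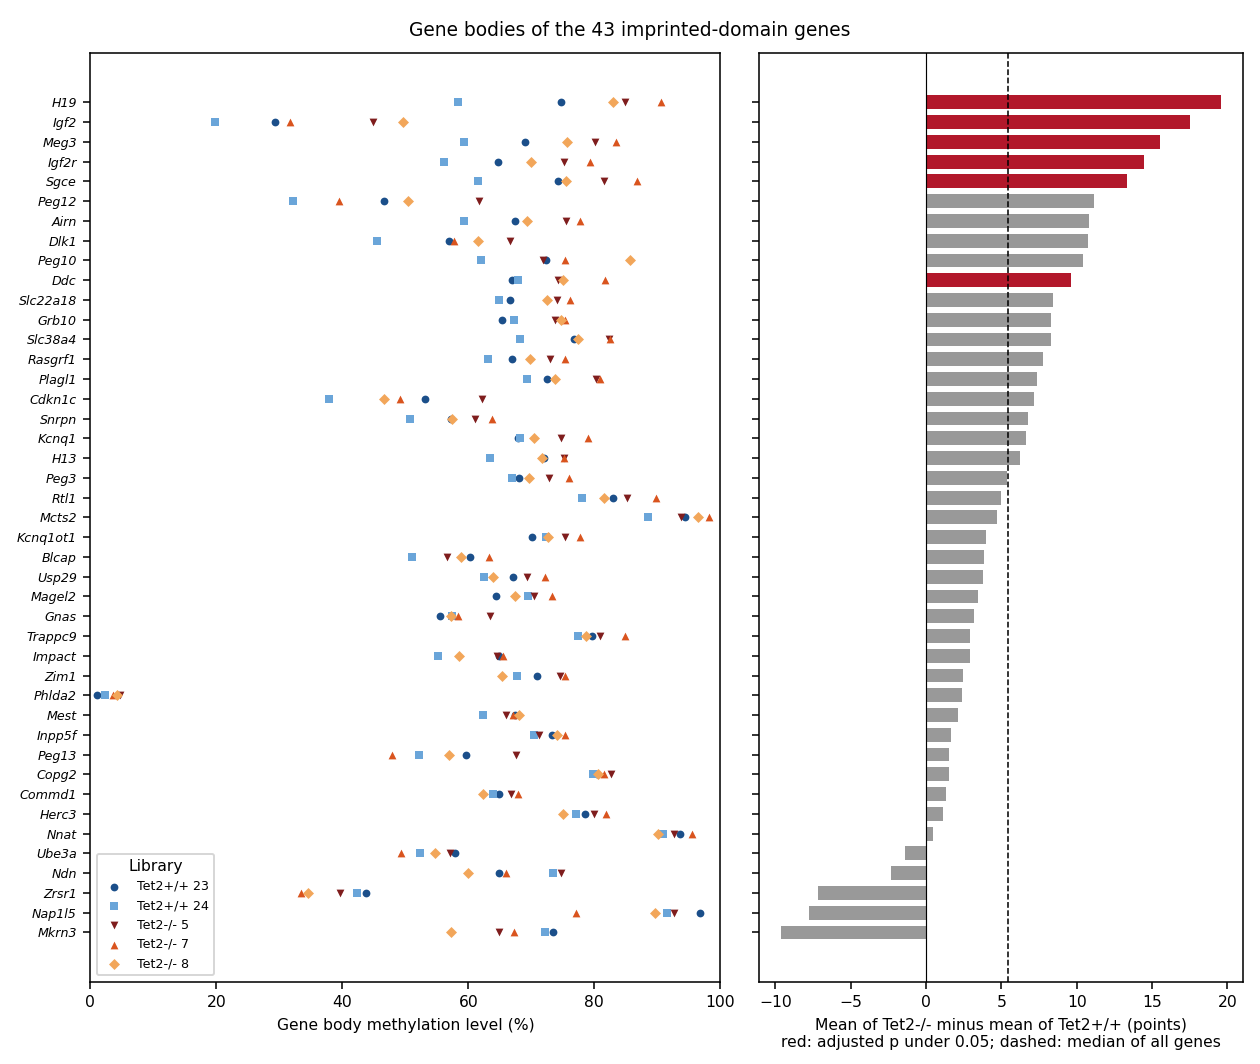
Left, methylation level of the gene body (%, x axis) of each of the 43 members (rows) in the 5 libraries, with points coloured by genotype. Right, bars of the difference of the group means (points), with the 6 genes that passed the test in red and a dashed line at 5.42 points, the median over all genes; *H19* has the longest bar, 19.6 points, and 5 genes lie below 0.

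The members and 10 kb on each side held 3308 windows of 1 kb with a CpG dyad, of which 2020 had at least 20 calls in every library. Of these, 43 passed edgeR's test (2.13%), 42 higher and 1 lower in *Tet2*-/-, where 2.29% of 1047054 windows did (2.28% higher and 0.00936% lower). With limma 34 passed (1.92% of all windows), and 6 after median subtraction (0.298%). Without *Tet2*+/+ library 24, 3 passed edgeR's test (0.149%, beside 0.161% of all windows). All *Tet2*-/- libraries were above both others in 32.8% of member windows and below both in 2.38%, beside 32.9% and 2.06% of all windows. By locus the share was largest at *H19*-*Igf2* (5 of 46, 10.9%), then at *Peg10*-*Sgce* (6.90%), *Mcts2*-*H13* (5.56%) and *Dlk1*-*Meg3* (4.90%). These counts per locus carry no test of their own.

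The 10 largest differences were in introns, at exons and in 1 case between genes. In an intron of *Ddc* (chr11:11826001-11827000, 4 dyads) the levels were 8.33% and 33.3% in *Tet2*+/+ and 73.1%, 93.3% and 83.3% in *Tet2*-/-, higher by 62.4 points (edgeR adjusted p = 0.00228). In an intron of *Trappc9*, which encodes a part of a vesicle tethering complex (chr15:72934001-72935000, 12 dyads), they were 14.7% and 29.8% in *Tet2*+/+ and 66.3%, 86.8% and 84.0% in *Tet2*-/-, higher by 56.8 points (edgeR adjusted p = 0.00119). Those were the only ones among the 16 windows named here that still passed without *Tet2*+/+ library 24 (edgeR adjusted p of 0.00993 and 0.0233), and neither passed without library 23 (0.0956 and 0.0538). In an intron of *Inpp5f* (chr7:128648001-128649000, 17 dyads) the levels were 21.2% and 20% in *Tet2*+/+ and 72.9%, 87.2% and 59.7% in *Tet2*-/-, higher by 52.6 points (edgeR adjusted p = 0.000665).

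An intergenic window near the end of *Sgce* (chr6:4665001-4666000, 14 dyads) was at 9.76% and 3.45% in *Tet2*+/+ and at 49.2%, 65.2% and 56.8% in *Tet2*-/-, higher by 50.4 points (edgeR adjusted p = 0.000441). It was nearly unmethylated in both *Tet2*+/+ leukemias. The other 6 of the 10 largest differences were 46.8 points in an intron of *Ddc* (chr11:11893001-11894000), 44.4 points at an exon of *Rasgrf1* (chr9:89974001-89975000), 42.2 points at an exon of *Sgce* (chr6:4691001-4692000), 40.6 points in an intron of *Kcnq1* (chr7:143315001-143316000), 40.4 points at an exon of *Igf2r* (chr17:12704001-12705000) and 40.2 points in an intron of *Herc3* (chr6:58893001-58894000). At *Rasgrf1* the *Tet2*-/- leukemias ranged from 25.4% in library 8 to 79.2% in library 7, above 10.9% and 8.57% in *Tet2*+/+. At *Sgce* the *Tet2*+/+ libraries were far apart, at 73.0% and 23.4%, below 82.6% to 100% in *Tet2*-/-, and the difference was 17.4 points without library 24 and also moved by more than 1.5 times, upward, without library 23.

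Only 1 member window passed with a lower level in *Tet2*-/-, in an intron of *Inpp5f* (chr7:128672001-128673000, 24 dyads). It was at 31.9% and 48.3% in *Tet2*+/+ and at 6.53%, 24% and 10.0% in *Tet2*-/-, a difference of -26.6 points (edgeR adjusted p = 0.0428), which did not pass without library 23, 24, 5 or 8 (edgeR adjusted p of 0.0734 to 0.706). Its direction is opposite to that of the intronic window named above in the same gene.

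Windows with at least 30 dyads were chosen by sequence alone, and 113 of them lay at the members. Of these, 5 passed edgeR's test (4.42%), where 3.49% of 35308 CpG-dense windows did, and all 5 were higher in *Tet2*-/- (lower in 0.0623% of all CpG-dense windows). With limma 4 passed, beside 2.65% of all, and after median subtraction 0, beside 0.666%. All *Tet2*-/- libraries were above both others in 27.4% and below both in 7.08%, beside 29.5% and 4.23% of all CpG-dense windows. A pair of neighbours that overlap exons of *Igf2* had the lowest levels but for *Phlda2*, in CpG-dense sequence that was nearly unmethylated in *Tet2*+/+. The window at chr7:142658001-142659000 (52 dyads) was at 3.51% and 2.54% in *Tet2*+/+ and at 26.0%, 17.9% and 50% in *Tet2*-/- (edgeR adjusted p = 0.00215). The next 1 kb was at 8.43% and 3.15% in *Tet2*+/+ and at 31.8%, 13.9% and 46.3% in *Tet2*-/- (edgeR adjusted p = 0.0139). Library 7 was the lowest of the 3 *Tet2*-/- libraries at both, and still above both others.

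The other 3 lay in *Kcnq1*, *Meg3* and *Phlda2*. At chr7:143154001-143155000 in *Kcnq1* (39 dyads) the levels were 12.1% and 28.2% in *Tet2*+/+ and 52.5%, 65.9% and 46.6% in *Tet2*-/- (edgeR adjusted p = 0.0207). At chr12:109546001-109547000 in *Meg3* they were 66.7% and 57.1% in *Tet2*+/+ and 91.7%, 93.6% and 86.6% in *Tet2*-/- (edgeR adjusted p = 0.00972). At chr7:143502001-143503000 in *Phlda2* (83 dyads) they were 0.256% and 0.529% in *Tet2*+/+ and 3.98%, 2.71% and 2.73% in *Tet2*-/-, a difference of 2.75 points (edgeR adjusted p = 0.0365). The *Phlda2* window stayed nearly unmethylated in both groups. None of the 5 passed without *Tet2*+/+ library 24 (edgeR adjusted p of 0.0754 to 0.555), where 0.53% of all CpG-dense windows did.

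Levels between 35% and 65% in all 5 libraries were found in 43 of the 2020 windows (2.13%), the same share as over the autosomes (2.13%). Among CpG-dense windows they were found in 6 of 113 (5.31%), beside 1.23% of the 34178 on the autosomes. The 6 windows were chosen by their level and are described without a test. They lie in *Gnas* (chr2:174297001-174298000), at the start of *Sgce* next to *Peg10* (chr6:4746001-4747000), at *Zim1* (chr7:6696001-6697000), downstream of *Kcnq1* (chr7:143437001-143438000), at *Cdkn1c* (chr7:143460001-143461000) and in *Slc22a18* (chr7:143480001-143481000). The window at *Cdkn1c*, with 97 dyads, was at 53.3%, 37.9%, 59.4%, 50.6% and 45.7%. The window at *Zim1*, a zinc finger gene beside *Peg3*, was at 36.8%, 52.4%, 56.5%, 46.3% and 54.5%.  The marking by all 5 libraries bounds how far the groups can differ.

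A mean of the 5 libraries in the band, added after the data were seen, held for 45 of 113 CpG-dense member windows (39.8%) and for 8.73% of those on the autosomes. Over windows of all densities it held for 16.3% at the members and 17.5% on the autosomes. The median group mean of CpG-dense windows was 46.0% in *Tet2*+/+ and 54.3% in *Tet2*-/- at the members, and 12.6% and 20.5% on the autosomes. CpG-dense sequence at imprinted genes was thus far more methylated than elsewhere in both groups.

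**Figure D5:**
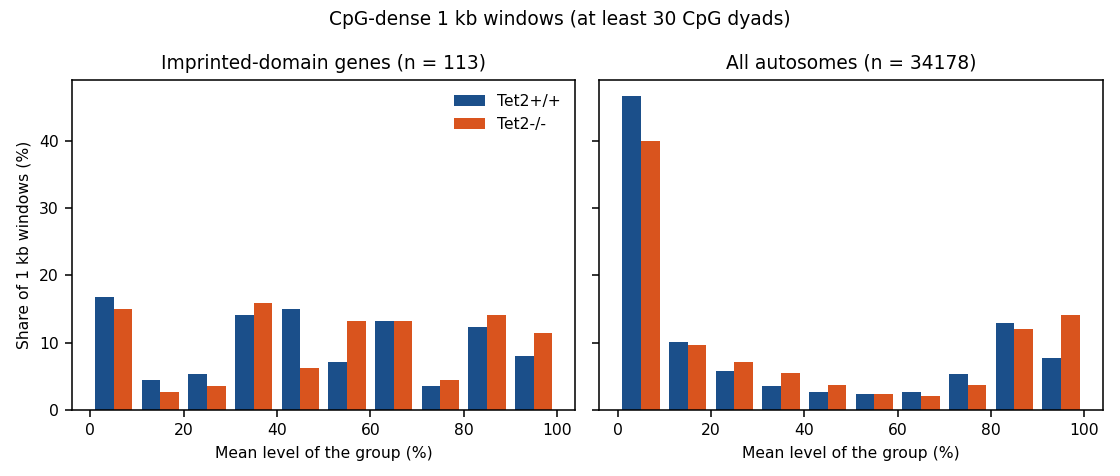
Share of CpG-dense 1 kb windows (%, y axis) by the mean level of the group in steps of 10% (x axis), for the 113 windows at the members (left) and the 34178 on the autosomes (right), with bars for each genotype. Autosomal windows are most frequent below 10%, whereas member windows spread over the whole range.

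Genes of 2 related lists were read the same way. Of 17 genes of proteins that set, keep or remove methylation or bind at imprinted regions, such as *Zfp57*, *Trim28* and *Dnmt1*, and with the deleted gene *Tet2* itself among them, 0 promoters passed edgeR's test (2 at an unadjusted p under 0.05, 0 with limma; 1.95% of all promoters passed) and 2 bodies did (11.8%, beside 12.9% of all bodies; 0 with limma), *Ctcfl*, a relative of *Ctcf*, and *Tet1*, a relative of *Tet2*. *Tet1* was at 60.5% and 61.6% in *Tet2*+/+ and at 72.5%, 75.5% and 69.6% in *Tet2*-/- (edgeR adjusted p = 0.0382). *Ctcfl* was at 64.6% and 53.8% in *Tet2*+/+ and at 71.3%, 79.6% and 71.2% in *Tet2*-/- (edgeR adjusted p = 0.00596).

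Of other imprinted genes, 0 of 34 promoters passed (7 at an unadjusted p under 0.05, 0 with limma) and 5 of 35 bodies did (14.3%, beside 12.9% of all bodies; 0 with limma), all higher in *Tet2*-/-. They were *Nespas*, the antisense gene of the *Gnas* cluster, *Ppp1r9a* and *Asb4*, which lie near *Peg10*, *Rian*, a noncoding RNA gene downstream of *Meg3*, and *Slc22a3*, a transporter gene near *Igf2r*. *Rian* was at 65.4% and 55.8% in *Tet2*+/+ and at 74.3%, 74.6% and 72.6% in *Tet2*-/- (edgeR adjusted p = 0.0112). *Slc22a3* was at 66.7% and 58.4% in *Tet2*+/+ and at 73.8%, 81.2% and 75.5% in *Tet2*-/- (edgeR adjusted p = 0.00659).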

How the data were processed

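Genomic DNA of sorted blasts was bisulfite converted and amplified with a random-primed kit by the authors. Per the labels and the study's methods, reads were checked with FastQC 0.11.7, trimmed with Trim Galore 0.4.3 and aligned to GRCm38 with Bismark 0.19.1 and Bowtie2, after which duplicates were removed. What the authors deposited are raw counts, for each CpG cytosine, of calls read as methylated and as unmethylated. Counts of both strands were added per dyad. Duplicates were removed by position. The intervals cover counting error only, and only where calls are independent, which calls of the same read need not be.

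Promoters, gene bodies and 1 kb windows that held 20 or more calls in every library were fitted over the whole genome with edgeR 4.0.16 in R 4.3.3 (quasi-likelihood test, a coefficient per library, Benjamini-Hochberg at 0.05). The fit was also run on simulated promoters and bodies without a genome-wide shift between the groups, so its error rate in these data was not checked. For single regions an exact two-sided permutation test over the 10 splits took the place of the t-test of the study. Alternatives were limma 3.58.1 on log2 ratios of counts (2 added to each), edgeR's likelihood ratio test, other minimums, thinning, other grids and each library left out. Named were the control regions, every member past the threshold or, among windows, the 10 with the largest difference, the CpG-dense ones and the only lower one, and the promoters nearest to the threshold, the latter kinds chosen after their values were seen. Members, lists and tests were chosen with earlier results of these data known. Sequences were read from the GRCm38 reference genome. Python 3.11.15, numpy 2.4.6, scipy 1.17.1 and matplotlib 3.10.9 were used.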

Additional observations from a re-analysis of the deposited data

How the results depend on the processing

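No paired analysis was possible because the groups share no replicate number (23 and 24 against 5, 7 and 8). Member promoters that passed numbered 0 in the reported fit, 1 after thinning to the shallowest library (2.38%, beside 1.44% of all promoters) and 7 with edgeR's likelihood ratio test (16.3%, beside 6.33%), and 0 with each library left out. Gene bodies numbered 6, but 10 with the likelihood ratio test (23.3%, beside 15.3% of all bodies), 0 with limma with or without subtraction of each library's median, and 0 to 9 with 1 library left out, 0 being without *Tet2*+/+ library 24 (0.0804% to 16.1% of all bodies). Windows numbered 43, but 28 with a minimum of 50 calls (4.47%, beside 6.01% of all windows), 74 with the likelihood ratio test (3.66%, beside 4.09%), 6 with limma after median subtraction and 3 to 42 with 1 library left out, from 3 without library 24 and 18 without library 23 (0.161% and 1.21% of all windows). CpG-dense windows that passed numbered 5, but 13 at 20 or more dyads (5%, beside 4.90% of autosomal windows), 3 at 50 or more (6%, beside 2.47%) and 0 to 4 with 1 library left out (0% to 3.54%, beside 0.53% to 3.59% of all CpG-dense windows). Of the 16 named windows, 14 did not pass without library 24, 7 without library 23, 3 without library 5, 5 without library 7 and 2 without library 8. Of the same windows, 11 did not pass with limma after median subtraction, 3 after thinning and 2 with limma. At a minimum of 10 calls 2 did not pass, and over dyads called in all libraries 1 did not, nor did 1 of the 6 named bodies. Windows at 35 to 65% in all libraries numbered 43, but 121 with a band of 30 to 70%, 10 with 40 to 60% and 24 with a minimum of 50 calls. They numbered 54 to 75 with 1 library left out. For these alternatives no autosomal share is given. By the mean of the libraries, chosen after seeing the data, 329 were in the band (16.3%, beside 17.5% of autosomal windows). The CpG-dense ones among them numbered 6 (5.31%, beside 1.23% on the autosomes), but 1 at 50 or more dyads (2%, beside 0.991%). With 1 library left out they numbered 6 to 11 (5.31% to 9.73%, beside 1.58% to 2.01%). With the grid shifted by 500 bp their share was 3.57%, beside 1.32%. Control regions in the band in all libraries numbered 2, but 0 within 500 bp of the centre, 1 over dyads called in every library and 2 to 5 with 1 library left out. Of the 48 group means of control regions, 12 moved by more than 1 SD between libraries within 500 bp of the centre, 4 with the mean of single dyads, 2 after thinning and 1 over dyads called in every library. Fewer libraries or dyads make the band easier or harder to keep by construction; other causes were not tested. Regions with a higher *Tet2*-/- mean numbered 12 to 17 with 1 library left out (16 reported), and *Tet2* segment coverage in *Tet2*+/+ was 100.5% to 131.9%. With each library left out, no named body or window changed the sign of its difference, nor did the promoters of *Ddc*, *Gnas* and *Blcap*. Where the groups do not overlap, leaving out 1 library cannot change the sign. That holds for the 6 named bodies, these promoters and the named windows with levels given, so the result is no support for them. Limma, the likelihood ratio test and other minimums use the same levels, so the sign could not change there. Other named promoters do not all share this result, and at *Kcnq1ot1* the sign turned without library 5. Single libraries gave few calls in the printed stretches, CTCF cores and single windows.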
